A study of Mus musculus with 3 samples.

Results

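The nuclei of the E16.5 mouse forelimb that scored highest for accessibility at 7 fibroblast loci in single-nucleus ATAC-seq are described here. Of 14048 nuclei in the E16.5 library, 11675 held at least 10000 counts (transposase cut sites in called peaks) and were scored. The score of a nucleus was its counts in peaks over the gene body and the 2 kb upstream of Dpt, Clec3b, Ly6a, Cd34, Mfap5, Pi16 and Postn, divided by its total counts. The 1167 nuclei in the highest-scoring 10% are called members, and the other 10508 scored nuclei are the comparison. The 10% is a fixed share, and the study describes fibrogenic cells as its largest ATAC-seq population. Members are therefore not all fibroblasts of the limb, and the other nuclei can include fibroblasts too. Because members were chosen on their counts at the gate loci, values at those loci describe the choice and only loci outside the gate are compared. The series holds 42365 nuclei in 3 libraries, 1 for each of the embryonic stages (E12.5 and E14.5 being the earlier ones).

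All libraries came from C57BL/6J embryos carrying Hic1CreERT2/CreERT2 and Rosa26LSLtdTomato/tdTomato, whose dams had received tamoxifen at E10, so that Hic1-expressing cells and their descendants carried tdTomato. Cre was driven from the Hic1 locus, so a nucleus should be that of a cell that had expressed Hic1 around the pulse or of its descendant. This does not hold for other cells that passed the sort. The study reports small groups of contaminating epithelial cells in its E16.5 forelimb RNA data, which it removed. Forelimbs were pooled, and tdTomato+ mesenchymal progenitors (MPs) negative for CD45, CD117, CD31, CD11b, F4/80 and Ter119 were sorted. At E16.5 the tissue was the elbow joint with the adjoining upper arm (distal stylopod) and forearm (proximal zeugopod), digested with Collagenase A, Pronase and DNase. With 1 library, no difference between members and other nuclei has a replicate, and no p-value is given. Intervals of ratios are 95% exact binomial intervals on fragment equivalents (cut sites divided by 2 and rounded up), and they cover counting error only. Intervals of shares take each nucleus or peak as a unit. They do not cover variation between embryos or libraries.

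Fibroblasts of connective tissue secrete and remodel the matrix of collagens, elastic microfibrils and proteoglycans around muscle, tendon, skin and nerve. Across tissues, a subset found around vessels and in fascia and marked by Pi16, Dpp4, Ly6a and Cd34 is regarded as a progenitor-like or universal fibroblast state. Open chromatin at a gene marks a locus where transposase can cut, and is not a measure of transcription.

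The gate loci code for surface and matrix proteins, and the share of nuclei with a count at each is given at full depth, where a nucleus without a count need not be closed at the locus. Dpt (chr1:164796644-164824266), dermatopontin of the matrix, held a count in 79.2% of members and 39.1% of the other nuclei. Clec3b (chr9:123150946-123157432), tetranectin, held one in 85.2% and 50.4%. Mfap5 (chr6:122505845-122529290), a microfibril-associated glycoprotein, held one in 63.5% and 27.6%. Clec3b, Dpt and Postn supplied the most of the members' gate counts (24.5%, 21.3% and 15.3%), followed by Cd34 (14.5%) and Mfap5 (13.5%). Cd34 (chr1:194938819-194961279), the sialomucin of progenitor cells, held a count in 68.5% of members and 38.5% of the others, and Postn (chr3:54361109-54391037), the matricellular protein periostin, in 69.5% and 42.9%. Pi16 (chr17:29317680-29330593), peptidase inhibitor 16, held one in 49.1% and 27.7%. Ly6a (chr15:74994877-74998031), which codes for the surface antigen Sca-1, held a count in only 20.2% of members and 6.54% of the others. It lies among paralogous Ly6 genes, so reads of near-identical copies may be split or lost there, which was not tested. Ly6a supplied 2.58% of the members' gate counts, so Sca-1 itself weighed little in the score.

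Membership rests on few cut sites. The median member held 16 gate counts (10th to 90th percentile 8 to 30) over 4 of the 7 loci, and the median other nucleus 6 over 2 loci. Only 0.771% of members were chosen on 1 locus alone, and 72.4% had counts at 4 or more. The lowest-scoring member had 487.7 gate counts per 1000000 and the highest-scoring nucleus left out had 487.3, beside a median member at 589.4 and a median other nucleus at 183.6. There is no gap at the boundary: 738 nuclei, 309 of them members, scored within 10% of it, so the members are the upper end of a range and not a separated class. At the other end 1428 nuclei (12.2%) had no gate count. The median depth was 27221 counts in members and 31498.5 in the other nuclei, and the median share of counts in promoter peaks was 39.2% and 40.6%. Compared within strata of depth and promoter share, the universal fibroblast median given later as 0.34 was 0.31 and the chondrogenic median of -0.60 was -0.42.

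To ask whether the 7 loci open together, each locus was left out of the score in turn, members were taken again on the other 6, and the locus left out was read. All 7 were more accessible in the members so chosen, with every interval above 0. Mfap5 stood at 52.6 counts per 1000000 (CPM) in members and 26.1 in the others, a log2 ratio of 1.01 (0.91 to 1.12). Ly6a had the highest ratio, 1.33 (1.1 to 1.56), from the fewest counts. Dpt reached 0.82 (0.74 to 0.90), Clec3b 0.73 (0.66 to 0.81) and Cd34 0.60 (0.50 to 0.70). Pi16, at 0.54 (0.41 to 0.67), and Postn, at 0.51 (0.42 to 0.61), were lowest and did not differ from each other beyond their counting error. The new members shared 73.3% to 95.3% of the original ones. With every nucleus thinned to 5000 fragment equivalents before scoring, the ratios ran from 0.33 at Pi16 to 0.82 at Ly6a and Mfap5, all still above 0.

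**Figure D1:**
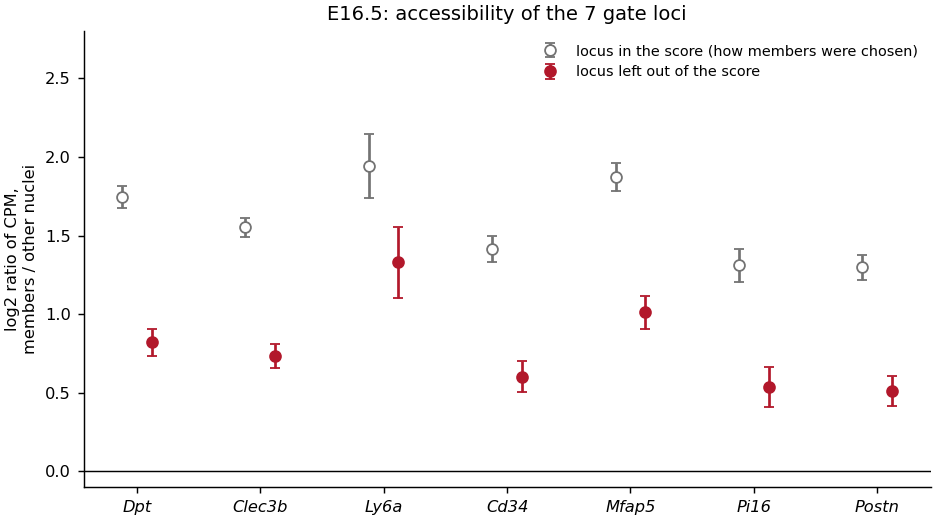
Log2 ratio of CPM in members over other E16.5 nuclei at each gate locus, with 95% counting intervals. Open points, where the locus is part of the score, show how members were chosen (1.30 to 1.94); red points, where it was left out, sit lower but all above 0, from 0.51 at Postn to 1.33 at Ly6a.

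Outside the gate, accessibility of a gene was summed over the same reach, and 14473 autosomal protein-coding genes with at least 2000 fragment equivalents and more than 100 kb from every gate gene were compared. A gene was counted as higher or lower in members where its log2 ratio passed 0.32 in that direction. By this rule 419 genes were higher (2.90%) and 784 lower (5.42%). The median gene lay at -0.08 on the log2 scale with the 5th percentile at -0.33 and the 95th at 0.24. Of all genes compared, 29.4% had a ratio above 0. These shares are the background for every panel count that follows. The split leaned to lower loci as scaled here, and turned to 712 higher and 440 lower when the median gene was set to 0, or 637 and 506 when counts in promoter peaks were used for scaling.

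Of the panels outside the gate, the universal fibroblast loci had the highest median. The 18 genes of this panel, none within 100 kb of a gate gene, had a median log2 ratio of 0.34 (0.26 to 0.43), 9 of 18 were higher and none was lower. The median was 0.18, and thus below these bounds, when members were chosen by a score from nuclei thinned to 5000 fragment equivalents, where 214 genes in all were higher and 390 lower. These are genes of the Dpt+ Pi16+ type, and the other universal state that the study names, Dpt+ Col15a1+, is not covered by this panel. Many of these genes come from the study's own RNA list for such fibroblasts, so the panel is not independent of the study's cell types. The highest was Lrrn4cl, with 25.3 CPM in members and 14.9 in the others, a log2 ratio of 0.76 (0.62 to 0.91). Anxa3, a calcium-dependent membrane-binding annexin, stood at 51.3 and 31.5 CPM, and Dpp4, the surface peptidase CD26 that marks the Pi16+ state, at 96.1 and 62.4. Their ratios were 0.70 (0.60 to 0.81) and 0.62 (0.55 to 0.70). The ligand gene Wnt2 followed at 0.60, the fibulin gene Efemp1 at 0.49, the complement regulator Cd55 and the transcription factor Creb5 at 0.48 each, the hyaluronan receptor Cd44 at 0.39 and the IGF-binding protein gene Igfbp6 at 0.38. At the lower end were Pcolce2, an enhancer of procollagen processing, at -0.05 (-0.17 to 0.06) and Rras2, a Ras-related GTPase, at -0.11 (-0.21 to -0.01). The remaining 9 genes lay between -0.11 and 0.30, so the shift was not shared by the whole panel.

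The other fibroblast panels moved less. Among 15 loci of interstitial fibroblasts the median was 0.01 (-0.04 to 0.10), with 1 gene higher. The highest were Fmo2, a flavin monooxygenase, at 0.37, the basement membrane collagen Col15a1 at 0.30 and hemicentin Hmcn2 at 0.29, and the lowest the lipid transporter Abca8a at -0.17 and the fibroblast activation protein gene Fap at -0.19. Pdgfra, which the study uses to identify MPs and fibroblasts, was at -0.09. Fap, at -0.19, and Dpp4, described above at 0.62, code for related surface peptidases and both lie on chromosome 2. Among 26 loci of collagens and fibrils the median was 0.08 (0.01 to 0.16), and 5 were higher. The fibrillin gene Fbn1 led with 242 CPM in members and 176 in the others, a log2 ratio of 0.46 (0.41 to 0.51). It was followed by the elastin cross-linking oxidase Loxl1 at 0.42, Col3a1 at 0.40, the fibulin Fbln2 at 0.37 and the tenascin Tnxb at 0.33 (-0.011 over its promoter peaks alone). The chains of type I collagen did not share this, with Col1a1 and Col1a2 both at -0.07, and the lowest were Fbln1 at -0.18 and the proteoglycan lumican, Lum, at -0.26. Fbn1, Fbln2, Tnxb and Col3a1 were thus at the upper end while the type I collagen loci stood near the background.

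Few regulators and signals passed the threshold, although positive ratios were more common in both panels than among all genes (29.4%). Of 25 fibroblast transcription factor loci, none was higher, 1 was lower and 13 were positive, with a median of 0.02 (-0.07 to 0.07). The highest were Zeb1 at 0.31, Ebf1 at 0.26 and Ebf2 at 0.23, and the lowest Tead1 at -0.28 and Runx1, a regulator of skeletal and blood cells, at -0.49 (-0.56 to -0.43). Tcf21 fell under the count minimum at 5.64 and 6.04 CPM. Of 23 loci of signals and receptors, 4 were higher, 1 was lower and 14 were positive, with a median of 0.07 (0.01 to 0.15). Sfrp4, a secreted Wnt antagonist, stood at 22.4 CPM in members and 14.8 in the others. Fgf7, a mesenchymal growth factor for epithelia, stood at 82.2 and 55.2, and Dlk1, the imprinted Notch-related ligand of preadipocytes, at 75 and 55. Their log2 ratios were 0.60, 0.57 and 0.45. At the low end lay the Hedgehog receptor Ptch1 at -0.24 and Bmp5, a ligand of skeletal and joint tissue, at -0.52 (-0.67 to -0.38). Ccl11, under the count minimum, had 10.3 and 8.10 CPM.

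The chondrogenic, osteogenic, tenogenic, perineural and dermal panels had medians below the background of all genes, and the chondrogenic median was the lowest. The progenitor (-0.17), epithelial (-0.48), blood (-0.16) and Schwann (-0.14) medians were below it too, so this was not particular to the other mesenchymal lineages. All 15 chondrogenic loci had negative ratios, with a median of -0.60 (-0.81 to -0.45), and 14 of 15 were lower. Of all genes, 29.4% had a positive ratio and 5.42% were lower. Col9a1, a cartilage collagen, had 15.4 CPM in members and 37.9 in the others, a log2 ratio of -1.30 (-1.48 to -1.12), and Col9a3 13.1 and 27.3. The smallest differences were at Sox9 (-0.15), the master regulator of cartilage, Sox5 (-0.33) and the matrix protein gene Comp (-0.44). When the highest-scoring 10% of nuclei on the chondrogenic or the epithelial loci were left out of both groups, the chondrogenic median was -0.26 and the lower genes fell from 784 to 439, and the universal fibroblast median was 0.32. Leaving out nuclei on the chondrogenic loci themselves must shrink that contrast, and the parts of the chondrogenic and epithelial nuclei in the drop cannot be told apart.

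Of 9 tenogenic loci past the count minimum, 4 were lower and 1 was higher, with a median of -0.26 (-0.47 to -0.16). The median was -0.13 with the score from thinned nuclei and -0.43 over promoter peaks alone. Tenomodulin Tnmd, a tendon surface protein coded on chromosome X, had 4.73 CPM in members and 11.5 in the others, and Scx, the tendon transcription factor, 8.88 and 14. Their log2 ratios were -1.28 and -0.66. Against the panel, the protease gene Htra3 was higher (73.2 and 52.5 CPM, 0.48), C1qtnf3, which the study also lists as a fascia marker beside Mfap5 and Clec3b, was at 0.24, and thrombospondin Thbs4 was at -0.24. Kera, under the minimum, was at 6.49 and 8.45 CPM. Of 12 dermal fibrogenic loci, 3 were lower and none higher, with a median of -0.16 (-0.27 to -0.03). The Wnt agonist Rspo1 had 16 CPM in members and 25.6 in the others, and Lef1, a nuclear effector of Wnt signalling, 67.7 and 98.3. Their log2 ratios were -0.68 and -0.54, while Twist2 (0.18), Crabp1 (0.09) and En1 (0.04) were at the top of the panel.

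**Figure D2:**
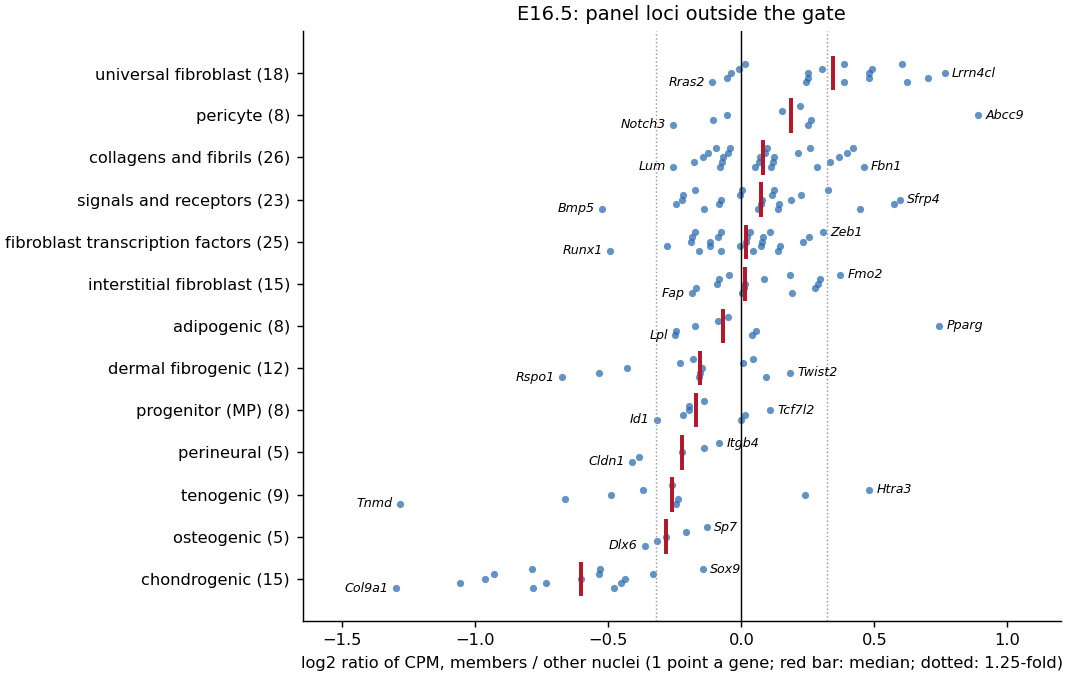
Log2 ratio of CPM in members over other E16.5 nuclei, 1 point for each panel gene past the count minimum, with the panel median as a red bar, the thresholds of 0.32 either way as dotted lines and the number of genes in brackets. The universal fibroblast panel has the highest median (0.34), and every chondrogenic gene lies left of 0.

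Mural and vessel genes were uneven within their panels. Abcc9, the sulphonylurea receptor subunit of a potassium channel and a common pericyte marker, had 108 CPM in members and 58.4 in the others, a log2 ratio of 0.89 (0.82 to 0.96). Kcnj8, the pore subunit of the same channel and a neighbour on chromosome 6, was at 0.25 (0.12 to 0.38), smooth muscle actin Acta2 at 0.26 (0.14 to 0.38) and the pericyte gene Rgs5 at 0.22 (0.08 to 0.36). Myh11 (-0.11) and Notch3 (-0.26), which mark smooth muscle and pericytes, were not higher. The pericyte median over 8 genes was 0.19 (0.03 to 0.34), with 1 of 8 higher. Tek, the angiopoietin receptor gene, had the highest ratio of any panel gene outside the gate, with 101 CPM in members and 51.8 in the others, 0.96 (0.89 to 1.03). The defining endothelial genes did not follow: Pecam1 was at 0.12, Sox17 at 0.05, Kdr at -0.11 and Cdh5 at -0.22, and the panel median was 0.01. Among 8 adipogenic loci Pparg, the nuclear receptor of fat cells, stood alone at 78.3 and 46.8 CPM, 0.74 (0.66 to 0.83), with the adipocyte factor Zfp423 at 0.05, perilipin Plin1 at 0.04, and Cebpa and lipoprotein lipase Lpl both at -0.25. Fabp4 (5.64 and 3.82 CPM) and Adipoq (1.49 and 1.5 CPM) were under the count minimum. Tek and Pparg were thus the only genes of the endothelial and adipogenic panels to pass the threshold.

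The median of the progenitor loci was -0.17 (-0.23 to -0.10) over 8 genes, beside -0.08 for all genes, and none passed the threshold. Hic1, which drove the label, was alike at 97.6 CPM in both groups, Tcf7l2 was at 0.11 and Sox11 at 0.01, while Snai1 was at -0.22 and the BMP target Id1 at -0.32. In the joint panel the heparan sulphatase Sulf1 was at 0.37, Creb3l1 at 0.13, Wnt9a at 0.04, Wnt4 at -0.30 and Erg at -0.40, and Prg4 (8.09 and 7.37 CPM) was under the minimum. Of 5 osteogenic loci 1 was lower and none was positive, beside 29.4% of all genes positive. They ran from the osteoblast factor Sp7 at -0.13, Alpl at -0.21 and Runx2 at -0.28 to Dlx5 at -0.32 and Dlx6 at -0.36. Spp1, Ibsp and Bglap held under 2000 fragment equivalents and are not compared. Of 5 perineural loci 2 were lower, Wnt6 at -0.38 and Cldn1 at -0.41 (0.042 over its promoter peaks alone), beside Tenm2 at -0.22, Slc2a1 at -0.14 and Itgb4 at -0.08 (-0.20 to 0.03). Position and proliferation were close to the background of -0.08: the limb position median was -0.08, with Shox2 (0.23), Hoxd13 (0.18) and Hoxd11 (0.01) highest and Hoxd9 (-0.15) and Hoxa13 (-0.20) lowest. The cell cycle median was -0.07, with Ccnd2 (0.08), Cdkn1a (0.05) and Birc5 (-0.01) highest and Ccnb1 and Mki67 (both -0.21) lowest.

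Loci of cells that the sort should not hold were read for the same nuclei. Keratin genes of surface epithelium were lower in members: Krt5 had 0.789 CPM in members and 5.93 in the others, and Krt14 2.48 and 6.83, both under the count minimum. Of the 3 epithelial genes past it, Cdh1 was at -0.64, Epcam at -0.48 and Trp63 at -0.19. With each gate locus weighed the same in the score, Cdh1 and the epithelial median over these few genes took the same value, 0.016. Their direction thus depends on that weighting. With nuclei thinned to 5000 fragment equivalents, Krt5 held a count in 2.54% of the other nuclei and 0.771% of members. Krt14 held one in 2.95% and 1.03%, so some nuclei of both groups had counts at keratin loci. Such nuclei were kept in the comparison, and the values without the epithelial-scoring nuclei are given above. Of the myogenic genes, Pax7 was at 0.07 and Myh3 at -0.04, and Myod1, Myf5 and Myog were under the minimum. The blood genes Spi1 (-0.02), Csf1r (-0.16) and Cd68 (-0.16) and the neuregulin receptor gene Erbb3 (-0.18) of Schwann cells were not higher in members. Ptprc and Sox10 were under the minimum and Gata1 had no count. Taken as counts per nucleus at equal depth (5000 fragment equivalents), members had a median of 10 fragment equivalents at the universal fibroblast loci (quartiles 7 to 12) and the others 8 (6 to 10), so the 2 distributions overlap widely. At the chondrogenic loci the medians were 2 (1 to 4) and 3 (2 to 5).

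Along the whole range of the score the panels moved gradually. From the lowest to the highest decile of nuclei, the median log2 ratio of the universal fibroblast loci over all scored nuclei went from -0.19 to 0.31, with 0.08 in decile 8 and 0.13 in decile 9. The chondrogenic loci ran the other way, from 0.90 in the lowest decile to -0.57 in decile 9 and -0.56 among members, and so did not fall further at the boundary. Tenogenic and dermal loci peaked in between: the tenogenic median was highest in decile 3 (0.11) and the dermal median in decile 4 (0.08), and both were lowest in members (-0.24 and -0.14). The pericyte median rose from -0.10 to 0.17 and the collagen median from -0.18 to 0.07. The lowest decile, all without a gate count, had a median depth of 18804.5 counts against 27221 to 36249 in the deciles above, and depth and score cannot be told apart there.

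**Figure D3:**
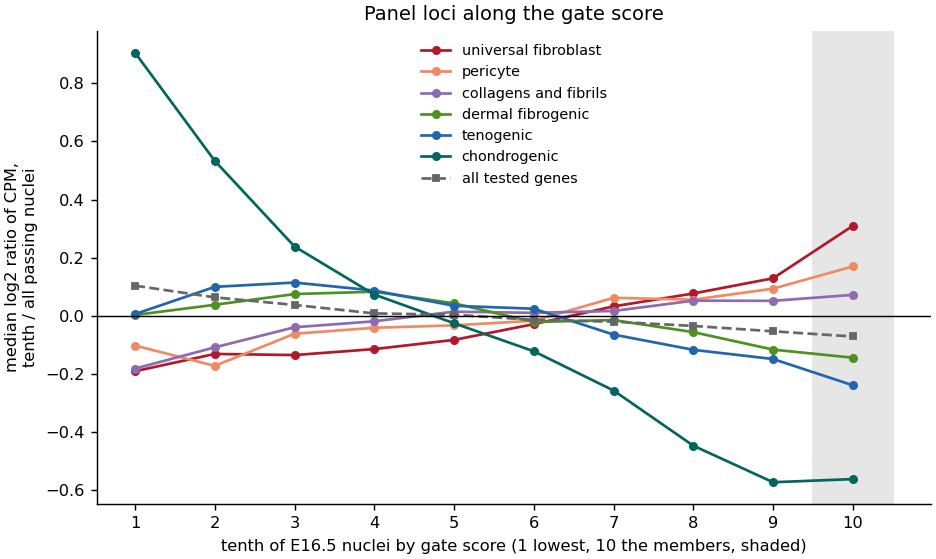
Median log2 ratio of CPM over each panel's genes in every decile of E16.5 nuclei by gate score, relative to all scored nuclei, with the median of all tested genes dashed. The universal fibroblast line climbs to 0.31 in the members (shaded), and the chondrogenic line drops from 0.90 to -0.56.

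Gates on 1 locus each were also read. Taking the highest 10% of nuclei on 1 locus gave a universal fibroblast median of 0.29 for Mfap5, 0.23 for Ly6a (the 923 nuclei with a count there), 0.19 for Clec3b and Dpt, 0.12 for Cd34, 0.10 for Postn and 0.09 for Pi16. The chondrogenic median was between -0.36 and -0.56 for 6 of the loci and -0.09 for Pi16. Both panels thus lay closer to 0 than with the 7 loci together, whereas the tenogenic median ran from -0.37 with Dpt alone and -0.26 with Clec3b to -0.10 with Cd34 and 0.05 with Pi16, beside -0.26 with all 7. The epithelial median was 0.24 with Ly6a alone and from -0.63 (Dpt) to -0.07 (Pi16) with the other loci. Pi16 and Postn, which also had the lowest ratios when left out of the score, thus gave the smallest universal fibroblast medians.

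Where the difference sat within a gene was then examined, by reading promoter peaks (1000 bp upstream to 100 bp downstream of a start site) apart from the rest. For several of the leading genes the promoter did not differ. At Dpp4 the promoter ratio was -0.15 and that of the other peaks 0.73, at Efemp1 -0.04 and 0.64, at Fbn1 -0.03 and 0.60, and at Anxa3 0.08 and 0.85. Over the promoter alone these genes would therefore not be counted as higher. Wnt2 and Cd55 were the reverse, with promoter ratios of 0.83 and 0.54 and other peaks at -0.46 (-0.79 to -0.14) and -0.20 (-0.76 to 0.31). Tek and Pparg were higher at both, with 1.07 and 0.91 at Tek and 0.74 and 0.74 at Pparg. Lrrn4cl was at 0.76 at the promoter and 0.88 (0.02 to 1.72) at its only other peak, which held few counts. Single elements went further than their genes: an intronic peak of Dpp4 72.6 kb from its start had a log2 ratio of 1.51 (1.15 to 1.86), whereas another 5.48 kb from the start was at -1.24. Creb5, a long gene with 98 peaks, held a peak at 1.90 and another at -2.05. At the chondrogenic gene Col9a1 all 7 peaks with at least 200 fragment equivalents were lower, down to -3.86 at the promoter.

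Outside the panels, the rule named the 12 highest and 12 lowest genes among those with at least median accessibility. The highest was Adamts19, a secreted metalloprotease, with 175 CPM in members and 95.2 in the others, 0.88 (0.82 to 0.93). Next came Col6a5, a type VI collagen chain, at 63.9 and 36 CPM (0.83), the integrin Itgb3 at 134 and 78.8 CPM (0.76) and the immunoglobulin-family receptor Cd96 at 88.5 and 52.1 CPM (0.76). The melanosome transporter Oca2 (0.67), the ligand Bmp3 (0.65), the mitochondrial ribosome gene Mrps18a (0.65), the channel subunit Kcnv2 (0.65), the growth cone protein Gap43 (0.64), the receptor Epha1 (0.64), Efhd1 (0.63) and Gm765 (0.62) completed the list. Matrix and adhesion genes thus stood beside genes whose products belong to other tissues, such as Oca2, Kcnv2 and Gap43. At Cd96, Oca2 and Mrps18a the promoter peaks were lower in members (-0.51, -0.42 and -0.49), and the gain lay in their other peaks. The lowest genes were led by Wwp2, a ubiquitin ligase whose gene hosts a cartilage microRNA, with 68.7 CPM in members and 124 in the others, -0.85 (-0.94 to -0.77). Syt8 (-0.73), Ppfibp2 (-0.72), Extl1 (-0.71), Eva1a (-0.70), the growth factor Pdgfc (-0.68), Mboat1 (-0.66), Trpm1 (-0.66), Cntn1 (-0.65), Lypd6b (-0.64), Spock1 (-0.64) and Mroh2a (-0.63) followed.

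At the level of single peaks, members and other nuclei differed mainly away from promoters. Of 46407 peaks with at least 1000 fragment equivalents and over 100 kb from every gate gene, 4323 were at least 1.5-fold higher in members (9.32%) and 3705 at least 1.5-fold lower (7.98%). Of the higher peaks 94.7% and of the lower peaks 91.1% were outside promoters, against 67.3% of all peaks compared. By position, 1.5% of promoter peaks, 8.21% of other exonic, 13.3% of intronic and 14.6% of intergenic peaks were higher. The lower shares in the same order were 2.17%, 8.84%, 12.1% and 10.2%, so promoter peaks differed less in both directions. The promoter peaks compared took 38.6% of all counts of the members and 40.2% of those of the other nuclei. Non-promoter classes took slightly more of the members' counts, intergenic peaks for instance 15.9% against 14.3%.

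The 6 non-promoter peaks with the highest ratios, are shown because they are the elements at which the members stand out most. Each line gives the 200 bp at the centre of the peak in GRCm38 (mm10), plus strand, in lower case with matches to AP-1, NFI, RUNX, TEAD, EBF, SOX and C/EBP motifs in capitals. H1 lies in the peak chr3:54619411-54620638, intergenic and 228 kb from Postn on the same chromosome. H2 is the peak chr11:90145977-90147085, intergenic. H3 is chr6:97781113-97782686, 25.2 kb upstream of Mitf. H4 is chr4:36164792-36166542, in an intron of Lingo2. H5 is chr6:53506525-53507985, in an intron of Creb5, 220.0 kb from its start. H6 is chr15:34548097-34549784, intergenic and 53.6 kb from the start of Pop1.
H1: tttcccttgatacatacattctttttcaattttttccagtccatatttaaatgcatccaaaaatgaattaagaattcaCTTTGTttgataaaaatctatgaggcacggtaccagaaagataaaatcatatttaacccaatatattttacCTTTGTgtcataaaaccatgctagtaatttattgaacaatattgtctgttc
H2: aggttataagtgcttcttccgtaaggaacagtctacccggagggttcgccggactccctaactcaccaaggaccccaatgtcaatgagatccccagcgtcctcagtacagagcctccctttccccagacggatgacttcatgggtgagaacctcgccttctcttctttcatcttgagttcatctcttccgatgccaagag
H3: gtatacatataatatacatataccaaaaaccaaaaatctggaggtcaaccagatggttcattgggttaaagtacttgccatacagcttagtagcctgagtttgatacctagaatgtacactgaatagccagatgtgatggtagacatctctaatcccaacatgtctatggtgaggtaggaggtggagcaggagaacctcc
H4: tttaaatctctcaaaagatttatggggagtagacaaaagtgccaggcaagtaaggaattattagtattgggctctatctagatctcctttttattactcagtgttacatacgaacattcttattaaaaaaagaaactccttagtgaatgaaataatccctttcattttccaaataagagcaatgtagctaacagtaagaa
H5: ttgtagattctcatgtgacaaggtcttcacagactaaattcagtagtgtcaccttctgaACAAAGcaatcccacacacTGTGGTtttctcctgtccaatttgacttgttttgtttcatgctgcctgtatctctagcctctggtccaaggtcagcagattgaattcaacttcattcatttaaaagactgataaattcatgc
H6: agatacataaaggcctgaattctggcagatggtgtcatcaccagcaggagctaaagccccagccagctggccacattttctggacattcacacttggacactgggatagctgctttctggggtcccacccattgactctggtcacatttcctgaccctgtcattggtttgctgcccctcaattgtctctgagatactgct

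These elements were 3.72-fold (H6) to 3.9-fold (H1) more accessible in members. H1 had 18.1 CPM in members and 4.64 in the others, H2 20.2 and 5.21, H3 19.0 and 4.96, H4 15.9 and 4.23, H5 31.8 and 8.51, and H6 21.4 and 5.77. At equal depth, H5 held a count in 11.7% of members (9.87% to 13.6%) and 3.66% of the other nuclei (3.31% to 4.04%), and the other 5 elements in 7.2% to 8.48% and 1.85% to 2.2%. Even these strongly member-biased elements were therefore seen in a minority of members at this depth and in some of the other nuclei. In the windows shown, H1 held 2 SOX matches and H5 a RUNX and a SOX match, and H2, H3, H4 and H6 held none of the 7 motifs.

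To see whether the higher elements share short sequences, 24 motifs were searched on both strands in the central 200 bp of 31227 non-promoter peaks. TGANTCA, the AP-1 site, was found in 14.1% of the 4095 higher peaks (13.1% to 15.2%), in 8.15% of the 3376 lower ones and in 9.81% of all. Because the higher peaks had a lower median GC content (45.0%, against 47.5% over all), all peaks were also weighted to the same GC content, which gave 10.1% for AP-1. The KLF-type CACACCC was in 5.96% of higher peaks and 4.32% of all at the same GC content, CCCNNGGG (EBF) in 6.81% and 5.47% (6.83% of all without the weighting, so that its difference came with the weighting), and the nuclear receptor site AGGTCA in 13.4% and 11.1%. The site of GATA factors, AGATAA, was in 12.5% of higher peaks and 10.2% of all weighted ones. On the side of the lower peaks, TAATTA (homeobox) was in 7.58% and 5.51% of all at their GC content, TGTGGT (RUNX) in 16.9% and 13.9%, and CATCTG, an E-box, in 24.9% and 21.0%. CCGGAA (ETS) was less frequent both in higher peaks (1.49%, against 2.63% of all at their GC content) and in lower ones (2.07% against 2.85%), and C/EBP (TTGCNNAA) and NFI showed little difference. Over deciles of the log2 ratio, AP-1 went from 8.2% in the lowest to 6.98% in decile 4 and then up to 14.5% in the highest, while the median GC content went from 46% to 49.5% and 44.5%. A match is only a run of letters and not evidence of a bound factor. Of the motifs marked in capitals and not spelled out so far, SOX was searched as ACAAAG, found in 15.8% of all peaks, and TEAD as GGAATG, found in 13.9%.

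**Figure D4:**
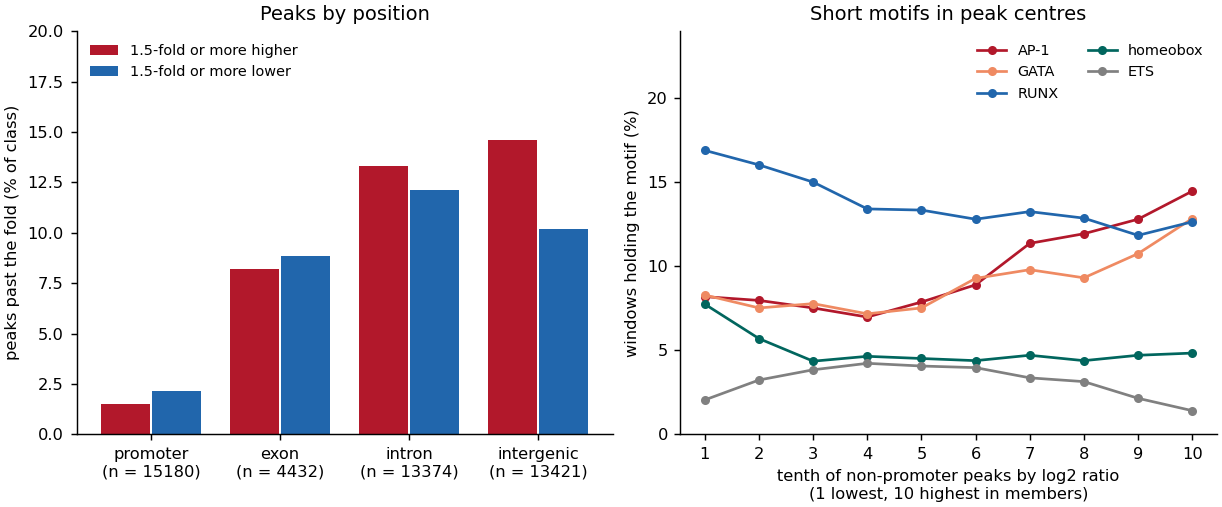
Left, percent of E16.5 peaks at least 1.5-fold higher or lower in members by position, with the number compared under each class; intergenic (14.6% higher) and intronic peaks differ far more often than promoters (1.5%). Right, percent of 200-bp peak centres holding each motif by decile of log2 ratio; AP-1 is at 8.2% in the lowest, 6.98% in decile 4 and 14.5% in the highest, and RUNX is at 16.9% in the lowest and 12.7% in the highest.

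The 4 highest non-promoter peaks with an AP-1 match, under the same limits and chosen after the values were seen, show the motif in place. A1 is the window in chr2:51825098-51826013, A2 in chr19:25906218-25907674, A3 in chr2:67122089-67123185 and A4 in chr7:78079179-78080793, all intergenic. Capitals mark the same 7 motifs.
A1: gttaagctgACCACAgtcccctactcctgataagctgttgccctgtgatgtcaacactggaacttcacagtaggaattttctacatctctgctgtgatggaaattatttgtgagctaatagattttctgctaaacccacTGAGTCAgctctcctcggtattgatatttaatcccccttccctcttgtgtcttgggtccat
A2: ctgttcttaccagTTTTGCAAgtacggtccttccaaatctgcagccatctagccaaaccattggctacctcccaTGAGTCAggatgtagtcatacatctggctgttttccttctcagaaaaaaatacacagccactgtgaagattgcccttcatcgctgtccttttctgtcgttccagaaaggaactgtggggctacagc
A3: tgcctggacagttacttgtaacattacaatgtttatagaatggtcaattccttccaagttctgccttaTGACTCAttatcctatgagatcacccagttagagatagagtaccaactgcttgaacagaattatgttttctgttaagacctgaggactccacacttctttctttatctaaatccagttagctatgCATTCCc
A4: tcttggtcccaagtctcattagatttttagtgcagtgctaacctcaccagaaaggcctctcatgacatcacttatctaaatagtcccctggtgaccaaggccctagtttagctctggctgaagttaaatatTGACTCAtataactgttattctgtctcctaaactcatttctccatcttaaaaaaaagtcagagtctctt

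A1 had 17.1 CPM in members and 4.84 in the others, a log2 ratio of 1.82 (1.63 to 2.02). A2 was at 1.78, A3 at 1.70 and A4 at 1.64. All 4 lay over 100 kb from the nearest protein-coding start, at 110 kb from Rbm43, 235 kb from Dmrt2, 291 kb from Gm21830 and 658 kb from Ntrk3. The leading elements of 3 genes described above, also chosen after the values were seen, are given for comparison. That of Fbn1 is the peak chr2:125509357-125512339, 2.86 kb upstream of its start, with 24.2 and 7.09 CPM and a ratio of 1.77 (1.61 to 1.93). That of Tek is chr4:94745622-94748070, in an intron 7.56 kb from the start, at 1.60 (1.42 to 1.78). That of Anxa3 is chr5:96801738-96805089, in an intron 10.1 kb from the start, at 1.05 (0.93 to 1.18).
Fbn1: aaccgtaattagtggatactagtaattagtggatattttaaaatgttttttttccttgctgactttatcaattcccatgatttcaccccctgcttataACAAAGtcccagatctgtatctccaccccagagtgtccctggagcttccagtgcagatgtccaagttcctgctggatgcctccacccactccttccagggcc
Tek: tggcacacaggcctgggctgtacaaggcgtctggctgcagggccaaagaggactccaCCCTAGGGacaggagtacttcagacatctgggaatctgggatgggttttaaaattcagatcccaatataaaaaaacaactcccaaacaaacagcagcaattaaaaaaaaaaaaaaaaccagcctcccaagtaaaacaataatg
Anxa3: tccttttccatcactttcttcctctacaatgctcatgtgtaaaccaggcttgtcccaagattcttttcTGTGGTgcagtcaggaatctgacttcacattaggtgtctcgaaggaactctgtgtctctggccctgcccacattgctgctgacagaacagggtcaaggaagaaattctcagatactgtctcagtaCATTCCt

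None of these 3 windows held an AP-1 match. The Fbn1 window held a SOX, the Tek window an EBF, and the Anxa3 window a RUNX and a TEAD match.

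Peaks around the gate loci were read by their distance from the 7 reaches. Peaks up to 10 kb outside the 7 reaches (21 peaks with at least 100 fragment equivalents) had a median log2 ratio of 0.18, and the 23 peaks from 10 to 25 kb 0.24. From 25 to 50 kb the median was 0.02, from 50 to 100 kb 0.08 and from 100 to 250 kb -0.07, beside -0.12 for peaks over 1000 kb away or on other chromosomes. Summed over the peaks of a distance class, the ratio was 0.47 up to 10 kb, 0.23 from 10 to 25 kb and 0.11 from 25 to 50 kb. It was 0.21 from 50 to 100 kb and 0.12 from 100 to 250 kb. From 250 to 500 kb the summed ratio was -0.05 and from 500 to 1000 kb -0.04, so it was raised only up to 250 kb. The highest of the flank peaks of each locus were picked after the values were seen. A peak 7.97 kb from Clec3b (chr9:123165403-123166488) was at 1.32 (1.14 to 1.49), one 24.3 kb from Dpt (chr1:164848553-164849651) at 1.29 (1.04 to 1.53), and one 50.5 kb from Cd34 (chr1:194885117-194886283) at 1.31 (1.13 to 1.49). The medians over all flank peaks of these 3 loci were 0.05, 0.30 and 0.27. At the other loci they were 0.27 for Postn, 0.09 for Ly6a, 0.07 for Mfap5 and -0.08 for Pi16. These peaks share cells and chromosomes with the gate and are a description of its neighbourhood.

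Without the gate and panel loci, the members still fell together. When all scored nuclei were clustered on 90104 peaks more than 100 kb from any gate or panel gene, 711 members (60.9%, 58.1% to 63.7%) fell in 1 of 7 clusters that held 22.6% of all nuclei. The second cluster held 27.8% of members and 26.9% of nuclei. Cluster 5 held 11 members, cluster 6 held 3 and cluster 7 held 2. The clusters are described only by the panels left out of them. Cluster 1 had a universal fibroblast median of 0.35 and a pericyte median of 0.31 over the remaining nuclei, cluster 2 had -0.10 and -0.09 with a gate median of 0.31, cluster 4 had a dermal median of 0.54, cluster 5 a tenogenic median of 0.99, cluster 6 an epithelial median of 2.05 and cluster 7 a chondrogenic median of 2.61. Only 26.9% of cluster 1 were members, so the gate picked a part of it. Within cluster 1, members against the 1933 other nuclei had a universal fibroblast median of 0.17 (0.03 to 0.32), against 0.34 over all nuclei, and 17 of 18 genes were positive. It was 0.12 (-0.11 to 0.25, 13 of 18) within cluster 2 and 0.04 (-0.31 to 0.51, 11 of 16) within cluster 3, which held fewer members. The bounds show the counting error of a typical gene and do not test the panel median. The share of all genes with a positive ratio was not taken within clusters, so these counts of genes have no background beside them. Within cluster 1 the chondrogenic (-0.16), tenogenic (-0.02) and dermal (-0.04) medians were closer to 0 than over all nuclei. With 10 clusters the leading one held 39.8% of members and 20.5% of all nuclei.

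Gates of the same size built on the loci of other lineages gave the overlap. Of the members, 1.37% (0.786% to 2.22%) were also in the chondrogenic gate, 5.31% (4.10% to 6.76%) in the dermal and 7.11% (5.70% to 8.74%) in the tenogenic gate, each of which takes 10% of all scored nuclei. The overlap was 15.0% (13.0% to 17.2%) with the pericyte gate and 12.3% with the joint gate. With a gate on the 18 universal fibroblast loci it was 29.5% (26.9% to 32.2%). In total 26.0% of members and 34.5% of the other nuclei were in at least 1 of the chondrogenic, tenogenic, dermal and pericyte gates.

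The same rule was applied to the libraries of the earlier stages, over their own peaks and with a gene minimum of 500 fragment equivalents. At E14.5 839 of 8397 scored nuclei were members and at E12.5 266 of 2664, with no peak at Ly6a in either. The depth minimum kept 41.9% of the nuclei of the E14.5 library, 32.1% at E12.5 and 83.1% at E16.5. The median depth of the scored nuclei was 14950 counts at E14.5, 17766 at E12.5 and 31102 at E16.5. The effect of this selection on the values of the earlier stages was not tested. The gate covered 13975 bp in 18 peaks of the E14.5 library, 17840 bp in 22 peaks of the E12.5 one, and 45838 bp in 37 E16.5 peaks, so its counts are not compared between stages. No gate count was found in 45.3% of scored nuclei at E14.5, in 46.4% of those of the E12.5 library and in 12.2% of the E16.5 ones. Loci left out of the score had a median log2 ratio of 0.28 at E14.5, where 3 of 6 had intervals above 0 (Clec3b, Cd34 and Mfap5), and of -0.24 at E12.5, where none of 6 did. At E14.5 the universal fibroblast median was 0.03 (-0.12 to 0.21), with 1 of 18 genes higher beside 0.934% of all genes, and at E12.5 it was 0.01 (-0.24 to 0.26). The chondrogenic median was -0.24 (-0.44 to 0.01) at E14.5, with 3 of 14 genes lower beside 1.16% of all, and -0.02 at E12.5. At single genes, Tek was at 0.30 (0.12 to 0.47) at E14.5 and 0.96 at E16.5, Wnt2 at 0.26 and 0.60, and Dpp4 at -0.05 and 0.62. Others were alike at both stages, such as Kcnv2 at 0.68 (0.46 to 0.89) and 0.65 and Bmp5 at -0.57 (-0.83 to -0.32) and -0.52. The differences between stages were not tested.

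The earlier gates hold fewer counts, so the E16.5 gate was also reduced to the peaks that overlap those of E14.5 and its counts thinned to the E14.5 mean of 0.904 fragment equivalents a nucleus. Members chosen so at E16.5 had a universal fibroblast median of 0.16 and a chondrogenic median of -0.45, with 151 genes higher and 284 lower, and shared 38.9% of the members. The corresponding values at E14.5 were 0.03 (-0.12 to 0.21) and -0.24 (-0.44 to 0.01), where the bounds are medians of the ends of the single genes' intervals. The difference between the stages was not tested. Of 362 genes higher at E16.5 and compared in both libraries, 71.5% had a positive ratio at E14.5, against 41.6% of all 14219 genes, with a median of 0.08. Stage cannot be told apart from library, from the elbow segment taken only at E16.5, from the pipeline version that differed at E16.5, or from the digestion, which used Dispase at E12.5 in place of the enzymes of the later stages.

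**Figure D5:**
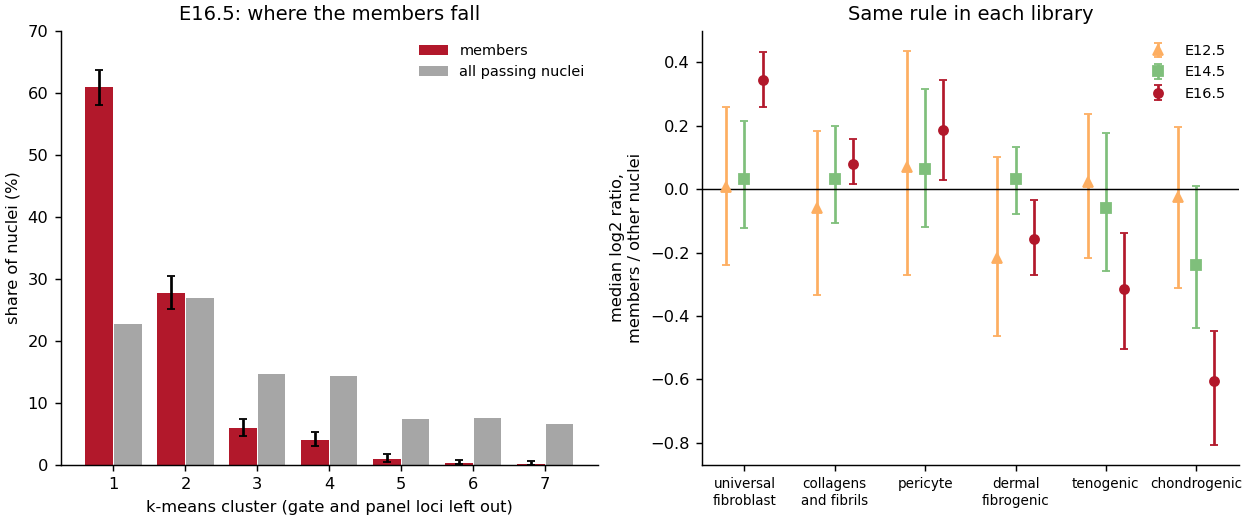
Left, percent of members (red, with 95% binomial intervals) and of all scored E16.5 nuclei (grey) in each of 7 clusters built without gate and panel loci; cluster 1 holds 60.9% of members and 22.6% of nuclei. Right, panel medians with the same rule in each library (genes with at least 500 fragment equivalents), with the median bounds as bars. The bars show the counting error of a typical gene and are not intervals on the panel median. The universal fibroblast median is 0.34 at E16.5, 0.01 at E12.5 and 0.03 at E14.5.

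The E16.5 library held 413425059 counts, against 204289151 at E14.5 and 87048167 at E12.5, and the members together 34866562. Between libraries, 151 to 401 barcodes were shared, and 45 members (3.86%) carried a barcode also found at another stage. Their part in the results was not tested.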

How the data were processed

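Nuclei of sorted tdTomato+ forelimb MPs were profiled by droplet single-nucleus ATAC-seq in 1 library a stage. The authors deposited, for each library, a peak-by-nucleus matrix of raw counts (cut sites in called peaks), with no normalization. The submitters' processing notes name Cell Ranger ATAC 1.1.0 and mm10, whereas per the file headers versions 1.0.1 (E12.5, E14.5) and 1.2.0 (E16.5) were run, and peaks were called in each library separately, so values were compared within a library.

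Nuclei with at least 10000 counts were scored at the gate loci. Counts of the members and of the other nuclei were summed over peaks that overlap a gene body and the 2 kb upstream, divided by the group's total counts (CPM) and compared as log2 ratios. Because both ends of a fragment are counted, exact binomial intervals (95%) of ratios used fragment equivalents. They cover counting error only, as reads are not independent molecules. Intervals of shares used numbers of nuclei or of peaks, which are not replicates. A panel's bounds are the medians of its genes' interval ends over the genes used. They show the counting error of a typical gene and are not an interval on the panel median. Genes needed 2000 fragment equivalents (500 for the comparison of stages), and peaks 1000. The calling thresholds were a log2 ratio of 0.32 for genes and a ratio of 1.5-fold for peaks.

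The members, panels and lists were chosen with earlier results of these data known, and the universal fibroblast panel draws on the study's RNA list. Named genes were the 3 highest and 2 lowest of each panel among genes past the minimum, and the 12 highest and 12 lowest outside the panels at or above the median accessibility. Others are named beside them for their role and were chosen after their values were seen. Clusters came from 30 components of the peaks and k-means. No doublet caller was run, and the deepest 5% of nuclei were left out as an alternative. The scripts were tested on simulated counts. Python 3.11.15, numpy 2.4.6, pandas 2.3.3, scipy 1.17.1, scikit-learn 1.9.0 and matplotlib 3.10.9 were used. Sequences were read from GRCm38. Some list members are not reported here.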

Additional observations from a re-analysis of the deposited data

Results flagged for a closer look

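Rspo1, a secreted Wnt agonist of the dermal panel, had ratios of opposite sign at the later stages. Its log2 ratio of members over other nuclei was -0.68 (-0.85 to -0.50) at E16.5 and 0.26 (0.00 to 0.51) at E14.5, with 4865 and 1378 fragment equivalents. The difference between the stages was not tested, since each has 1 library.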

How the results depend on the processing

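No paired analysis was possible because each stage has 1 library and the groups compared are nuclei of 1 library. Over the alternatives of gate, score, scaling, peaks and nuclei, the universal fibroblast median ranged from 0.16 to 0.42, the chondrogenic from -0.75 to -0.26, the tenogenic from -0.43 to -0.13 and the dermal from -0.18 to -0.08, and none of these changed sign. Beyond them, a gate on Pi16 alone gave 0.09 for universal fibroblast, -0.09 for chondrogenic and 0.05 for tenogenic loci, and within cluster 3 the dermal median was 0.05. With the score from nuclei thinned to 5000 fragment equivalents, the universal fibroblast median was 0.18, the tenogenic -0.13, the left-out gate locus median 0.53, and 214 genes were higher and 390 lower. Gates of the highest-scoring 20% gave a universal fibroblast median of 0.26, and of 5% 1194 lower genes. Promoter peaks only gave 0.26 for universal fibroblast and -0.44 for chondrogenic loci, with 168 higher and 446 lower genes, and strata of depth and promoter share -0.42 for chondrogenic loci. Weighing each locus the same left 395 lower genes. The counts were 712 and 440 with median-ratio scaling, 637 and 506 with promoter scaling, 839 and 1662 with no filter on low counts, and 79 and 128 at 1.5-fold. With 10 clusters the leading one held 39.8% of members and 20.5% of nuclei. Alternatives chosen after seeing the data were 3. Without nuclei of the chondrogenic or epithelial gates the chondrogenic median was -0.26 with 439 lower genes. Gate counts thinned to the E14.5 mean gave 0.16 and -0.45 with 151 higher and 284 lower genes. Peaks under 2 kb wide moved none of these 4 panel medians outside its bounds.

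Directions turned for single genes. Promoter peaks alone gave Dpp4 -0.15, Efemp1 -0.041, Fbn1 -0.035, Tnxb -0.011, Cldn1 0.042, Cd96 -0.51, Oca2 -0.42, Mrps18a -0.49 and Gm765 -0.057. Peaks under 2 kb wide gave Wnt2 -0.46, Hapln1 0.024 and Mrps18a -0.50. Weighing each locus the same gave 0.016 for Cdh1 and for the epithelial median. The cause was not tested. Few counts at the gate limit who is a member, since a thinned score kept 52.4% of members.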
